A study of Cucurbita pepo with 18 samples.

Results

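Genes of auxin synthesis, transport and response were followed in the developing seed coat of pumpkin (Cucurbita pepo). They are the 132 of 29484 counted features whose deposited description holds one of the phrases auxin transporter, auxin efflux, YUCCA, auxin response factor, indole-3-acetic acid-amido synthetase or auxin-responsive protein IAA, and no measured value was used to choose them. By their closest described protein they comprised 20 YUCCA flavin monooxygenases, 13 GH3 amido synthetases, 13 AUX/LAX carriers, 28 PIN and PIN-LIKES proteins, 21 Aux/IAA repressors and 37 auxin response factors (ARFs). The closest proteins came mostly from Arabidopsis and rice, and 110 members shared their protein name with another member, so each gene is given with its identifier. Of the 13 GH3 genes, 3 were described as JAR1, an enzyme that in Arabidopsis couples jasmonic acid and not auxin to an amino acid. Among the ARF genes, 2 were described as REM16 and 1 (Cp4.1LG01g00450) as cellulose synthase-like protein G3, a gene model that holds both ARF and cellulose synthase domains.

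Indole-3-acetic acid, the main natural auxin, is made from tryptophan by way of indole-3-pyruvate, and YUCCA enzymes carry out the last step. GH3 enzymes couple the hormone to amino acids, AUX/LAX carriers bring it into cells, many PIN carriers export it in a directed way, and PIN-LIKES proteins act on it at the endoplasmic reticulum. Aux/IAA proteins hold ARF transcription factors inactive until auxin, bound by TIR1/AFB receptors, brings about their degradation. In Arabidopsis, auxin made in the endosperm after fertilisation is known to drive growth of the seed coat, and YUC10 is expressed there from the paternal copy.

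RNA-seq libraries came from seed coats of a hulled accession (H) and a hull-less accession (HL) at 5, 10 and 20 days after pollination (DAP), with 3 biological replicates a group, 18 libraries in all and no treatment. HL carries a natural insertion in CpNST1, a NAC transcription factor gene of secondary wall formation, and H carries the allele without it. H and HL were separate accessions used as parents of a cross, so that the effect of this allele and that of other differences between them cannot be told apart. The number of plants or fruits behind a replicate is not given in the sources used here. Reads of both were mapped to the genome of another type, zucchini, and any part of sequence differences from it in the counts was not tested.

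Library totals ranged from 13827773 to 18443048 counts. H_10 replicate 1 stood apart, with correlations of 0.8752 and 0.9132 (log2 CPM across genes) to the other 2 libraries of its group, against 0.9592 to 0.99 for all other pairs. The seed coat marker AGL11 was present in every library, at 442 to 1463 CPM (counts scaled to library size). Secondary wall CesA genes summed to 722 to 934 CPM in H_20 and 13.2 to 16.4 CPM in HL_20. At 20 DAP other markers also differed between the accessions. A list of 24 embryo and endosperm genes, chiefly of seed storage, summed to 8805, 6858 and 1334 CPM in H_20 and to 2895, 242 and 94.2 CPM in HL_20, with 22 and 20 of the 24 at a mean of 1 CPM or more. A list of 39 photosynthesis genes summed to 2043 to 2403 CPM in H_20 and 4851 to 5963 CPM in HL_20. A list of 25 cell division genes summed to 198 to 245 CPM in H_20 and 155 to 198 CPM in HL_20. The part of these tissues in the differences at 20 DAP was not tested, and in whole seed coats fewer cells of a type and less RNA per cell cannot be told apart.

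Between the accessions, members were called more often at 20 DAP than at 5 or 10 DAP, and most of the calls at 20 DAP were lower in HL. A call required an adjusted p of no more than 0.05 (quasi-likelihood test of edgeR, Benjamini-Hochberg adjustment over all features) and a log2 fold change of 1 or more in either direction. At 5 DAP 8 of 98 tested members were higher in HL and 11 lower, where 5.53% of all tested features were called higher and 6.43% lower. At 10 DAP the counts were 4 higher and 7 lower of 87, against 5.42% and 5.56% of all features. At 20 DAP they were 6 higher and 20 lower of 92 (6.52% and 21.7%), against 8.37% and 12.7% of all features. The median log2 fold change of the tested members moved from −0.07 at 5 DAP through −0.15 at 10 DAP to −0.43 at 20 DAP, while that of all features lay at −0.01, −0.04 and −0.01.

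Coverage of the list was uneven. In all, 11 members (7 YUCCA, 3 PIN and 1 Aux/IAA) had 3 counts or fewer in each of the 18 libraries, 24 passed the filter on low counts in no comparison, and 77 were tested at all 3 stages. Of the 41 members called between accessions at any stage, 29 were called at 1 stage, 9 at 2 and 3 at all 3. Calls at more than 1 stage were not counted over all features. Another 19 members overlapped a neighbouring feature, and since the strand setting of the counting is not given, reads of such pairs cannot be told apart.

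**Figure D1:**
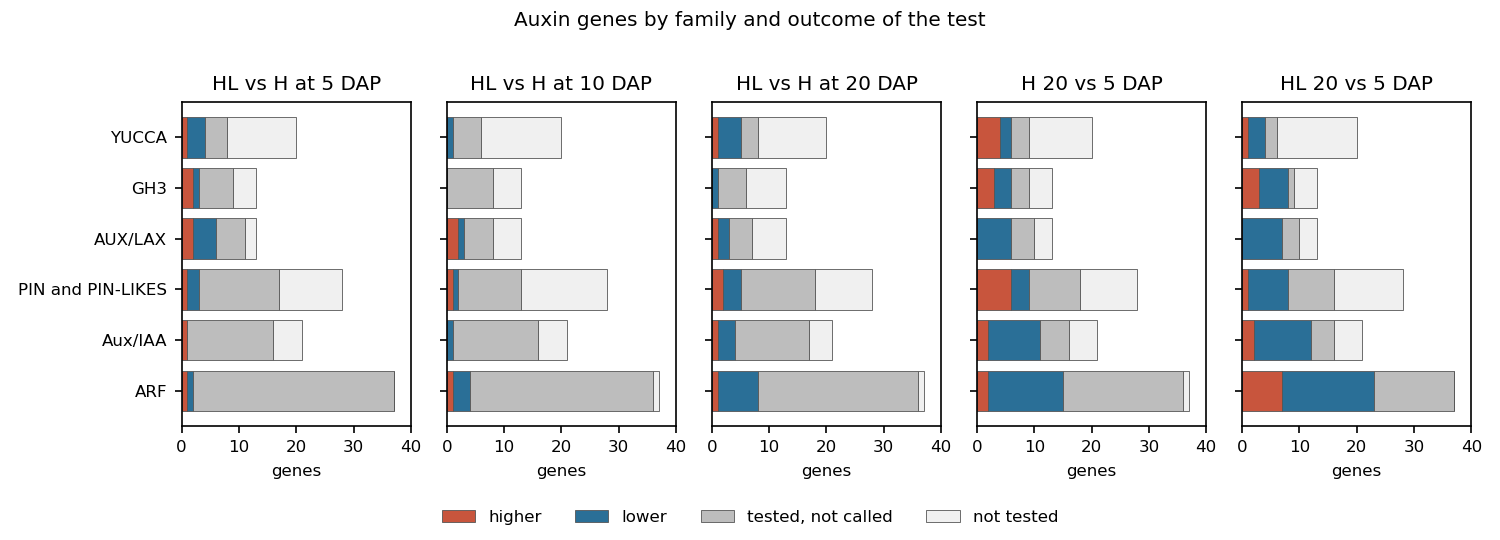
Number of auxin genes in each of 6 families (rows) that were higher, lower, tested but not called, or not tested in 5 comparisons (panels; x axis, genes). For HL vs H the colours refer to HL, and for 20 vs 5 DAP to the later stage. AUX/LAX genes show no rise from 5 to 20 DAP in either accession, and YUCCA genes are the family with the largest untested share in each panel.

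Among the synthesis genes, copies described as YUCCA10 went in opposite directions at 20 DAP. Cp4.1LG03g05590 had the highest level of the family per length, with a mean of 46.7 FPKM (fragments scaled to gene length and library size) in H_20 and 119 FPKM in HL_20. It lies on linkage group 3 (bases 4655559 to 4658421, minus strand, of the zucchini genome used in the files). Its counts were 67.9, 72.4 and 62.1 CPM in H_20 and 161, 157 and 203 CPM in HL_20, and all HL libraries lay above all H libraries. The log2 fold change of HL over H was 1.36 ± 0.14 (SE, adjusted p = 0.000587 by edgeR's quasi-likelihood test), but in a fit over all 18 libraries the adjusted p was 0.136. At 5 DAP this copy stood at 0.482 to 1.05 CPM in the 6 libraries, and at 10 DAP it ranged from 0.732 to 6.72 CPM in H and from 0.75 to 23.5 CPM in HL with overlap.

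The other 3 copies described as YUCCA10 were lower in HL at 20 DAP. Cp4.1LG00g12020, on the unplaced linkage group 0, measured 1.2, 1.63 and 1.13 CPM in H_5, 5.71, 4.06 and 4.19 CPM in H_10 and 10.4, 11.9 and 9.73 CPM in H_20. In HL it measured 0.101, 0.0965 and 0.321 CPM at 5 DAP, 0.878, 0.64 and 0.225 CPM at 10 DAP and 0.654, 0.462 and 0.46 CPM at 20 DAP. The accessions did not overlap at any stage, and the log2 fold changes of HL over H were −2.87 ± 0.46, −2.97 ± 0.50 and −4.33 ± 0.25 (adjusted p = 0.00459, 0.015 and 6.07e-05, edgeR). The call at 10 DAP was lost without H_10 replicate 3 (adjusted p = 0.0579, edgeR) and without HL_10 replicate 2 (adjusted p = 0.0722, edgeR). Cp4.1LG12g05390 was lower in HL by a log2 fold change of −1.70 ± 0.36 at 5 DAP and −3.75 ± 0.50 at 20 DAP, where H_20 had 9.57, 4.8 and 8.32 CPM and HL_20 had 0.357, 0.346 and 0.987 CPM. Its call at 5 DAP was lost without H_5 replicate 3 or HL_5 replicate 3 (adjusted p = 0.0553 and 0.0523, edgeR). Cp4.1LG16g00830 had 0 counts in all libraries of 5 DAP and reached 0.702, 0.706 and 5.19 CPM in H_20 against 0.238, 0.115 and 0 CPM in HL_20, and its call rested on H_20 replicate 3, HL_20 replicate 2 and HL_20 replicate 3 (adjusted p = 0.0923, 0.0835 and 0.0562 without each, edgeR) and was lost in the fit over 18 libraries (adjusted p = 0.0553, edgeR). These copies share a closest protein, and whether reads were divided between them was not tested.

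YUCCA6, in Arabidopsis an enzyme of leaf and flower auxin synthesis, was represented by Cp4.1LG07g02100 on linkage group 7. It measured 26.8, 52.5 and 32.5 CPM in H_5 against 18.4, 14.8 and 20.6 CPM in HL_5, and 17.6, 9.74 and 21.8 CPM in H_20 against 2.14, 5.14 and 0.723 CPM in HL_20. H lay above HL without overlap at both stages, and the log2 fold changes were −1.05 ± 0.25 and −2.61 ± 0.62 (adjusted p = 0.0197 and 0.0152, edgeR). At 10 DAP H_10 replicate 1 alone reached 133 CPM, with 51.3 and 32.1 CPM in the other H libraries and 25, 14.8 and 23.6 CPM in HL, and the difference was not called. The call at 20 DAP was lost without H_20 replicate 3 (adjusted p = 0.0518, edgeR), and that at 5 DAP without H_5 replicate 2, HL_5 replicate 1 or HL_5 replicate 2 (log2 fold changes from −1.08 to −0.72) and in the fit over 18 libraries (adjusted p = 0.234, edgeR).

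A copy of YUCCA8, Cp4.1LG17g09670, was higher in HL at 5 DAP, at 3.75, 5.35 and 6.65 CPM against 0.478, 0.514 and 0.66 CPM in H (log2 fold change 3.23 ± 0.29, adjusted p = 0.000514, edgeR). At 20 DAP the accessions overlapped. Another copy of YUCCA8, Cp4.1LG05g00970, had its highest mean at 10 DAP in both accessions, 46.8 CPM in H and 97.4 CPM in HL, although H_10 replicate 1 held 0.213 CPM beside 84.1 and 56.2 CPM in the other H_10 libraries. It fell from 5 to 20 DAP in both. In H the mean fell at least 26.3-fold, from 9.71, 1.45 and 5.57 CPM in the H_5 libraries. In HL the log2 fold change was −3.33 ± 1.09. The call in HL was lost without HL_5 replicate 1, HL_5 replicate 2, HL_20 replicate 2 or HL_20 replicate 3 (adjusted p from 0.0635 to 0.11, edgeR) or with all 18 libraries in the fit (adjusted p = 0.0658, edgeR). The gene described as YUCCA9, Cp4.1LG17g09640, lies next to Cp4.1LG17g09670 and holds domains of unknown function in place of the flavin monooxygenase domain.

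Of the 13 GH3 genes, 9 were tested at 5 DAP, where 2 were higher and 1 was lower in HL, against 5.53% and 6.43% of all features. At 10 DAP 0 of 8 tested were called, against 5.42% of all features called higher and 5.56% lower. The unadjusted p of edgeR was under 0.05 for 0 of these 8 genes, and DESeq2 also called 0. At 20 DAP 1 of 6 tested was lower, where 12.7% of all features were. Cp4.1LG16g04550, described as GH3.5, had 9.47, 7.52 and 9.48 CPM in H_5 and 1.42, 0.916 and 0.643 CPM in HL_5, a log2 fold change of −3.15 ± 0.30 (adjusted p = 0.000628, edgeR). By 20 DAP every library was at 0.0706 CPM or less in H and 0.288 CPM or less in HL, so that the gene fell in both. Its whole span of 1543 bases overlaps an undescribed feature of the other strand, Cp4.1LG16g04720, which averaged 34.3 CPM in H_5 and 31.1 CPM in HL_5. The opposite order was seen for a pair of genes described as GH3.6, in Arabidopsis an early auxin-induced gene. Cp4.1LG00g00260 measured 0.335, 0.327 and 0.425 CPM in H_5 and 4.15, 8.06 and 2.75 CPM in HL_5 (log2 fold change 3.76 ± 0.49, adjusted p = 0.00217, edgeR). Cp4.1LG06g07290 measured 0.43, 0.56 and 0.66 CPM in H_5 and 2.99, 1.4 and 2.2 CPM in HL_5 (log2 fold change 1.98 ± 0.37, adjusted p = 0.00802, edgeR), and this call was lost in the fit over 18 libraries (adjusted p = 0.175, edgeR). All HL libraries were above all H libraries for both.

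At 20 DAP the only called GH3 gene was Cp4.1LG01g02350, described as GH3.1, with 7.02, 5.86 and 4.93 CPM in H_20 and 3.21, 2.6 and 0.921 CPM in HL_20 (log2 fold change −1.40 ± 0.44, adjusted p = 0.0382, edgeR). This call was lost without H_20 replicate 1, 2 or 3 or HL_20 replicate 2 (adjusted p from 0.0684 to 0.112, edgeR) and in the fit over 18 libraries (adjusted p = 0.107, edgeR). Its copy Cp4.1LG10g02290 went the other way over time in both accessions, from a mean of 2.45 to 66.8 CPM in H and from 2.38 to 79.8 CPM in HL. The gene of the family with the highest mean over the 18 libraries, 66.1 FPKM, was the JAR1 copy Cp4.1LG08g00950, which fell from 5 to 20 DAP in both accessions (log2 fold changes −2.21 ± 0.20 in H and −1.62 ± 0.15 in HL). A second JAR1 copy, Cp4.1LG03g16180, rose from 0.143, 0.14 and 0.425 CPM in H_5 to 14.8, 14.8 and 25.8 CPM in H_20. In HL it rose from 0.0506, 0.0482 and 0 CPM to 11.9, 9.4 and 14.2 CPM, by the mean at least 77.9-fold when 3 counts a library are taken as the floor.

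AUX/LAX influx carriers were mostly highest at 5 DAP and were called in both directions between the accessions. At 5 DAP 2 of 11 tested were higher in HL and 4 lower, against 5.53% and 6.43% of all features. At 10 DAP 2 of 8 were higher and 1 lower, against 5.42% and 5.56%. At 20 DAP 1 of 7 was higher and 2 were lower, against 8.37% and 12.7%. Cp4.1LG03g02890, described as transporter-like protein 2 (linkage group 3, bases 335628 to 339480, minus strand), had the highest level of the family in H_20, with a mean of 20.8 FPKM. It measured 45.7, 64 and 47.9 CPM in H_5, 25.3, 12.8 and 17.4 CPM in H_10 and 50, 50.1 and 43.1 CPM in H_20. The values in HL were 27.3, 24.3 and 27 CPM at 5 DAP, 5.85, 5.26 and 3.75 CPM at 10 DAP and 6.13, 7.27 and 5.72 CPM at 20 DAP. The accessions did not overlap at any stage, and the gap widened with age: the log2 fold changes of HL over H were −1.003 ± 0.133, −1.88 ± 0.31 and −2.91 ± 0.14 (adjusted p = 0.00224, 0.015 and 2.88e-05, edgeR), and the change in this ratio from 5 to 20 DAP was itself called (−1.90 ± 0.31, adjusted p = 0.000667, edgeR, 18 libraries). At 5 DAP the value fell under the fold limit without H_5 replicate 2 (−0.83) or HL_5 replicate 2 (−0.94). That call was also lost with RLE scaling, with DESeq2, with no filter on low counts and with the replicate number as a block, and was kept in 8 of 14 settings. At 10 DAP the call was lost without H_10 replicate 3 or any of the 3 HL_10 libraries (adjusted p from 0.0505 to 0.067, edgeR).

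Cp4.1LG01g05110, also described as transporter-like protein 2, fell in both accessions and was not detected in HL_20. Its 3 libraries held 29.7, 29.6 and 30.8 CPM in H_5 and 15.4, 16.1 and 16.8 CPM in HL_5. At 20 DAP they held 1.34, 2.05 and 1.73 CPM in H and 0 counts in each HL library, so that HL was at least 8.64-fold lower (floor of 3 counts a library, 0.173 to 0.197 CPM in HL_20). The fall in HL from 5 to 20 DAP was at least 81.7-fold.

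Copies described as transporter-like protein 3 changed sides between stages. Cp4.1LG01g20210 measured 9.52, 12.8 and 10.8 CPM in H_5 against 2.84, 2.32 and 1.84 CPM in HL_5 (log2 fold change −2.25 ± 0.21, adjusted p = 0.000596, edgeR). At 20 DAP it measured 1.66, 1.27 and 1.41 CPM in H against 3.15, 4.1 and 3.55 CPM in HL (1.30 ± 0.27, adjusted p = 0.00948, edgeR). H was the higher at 5 DAP and HL at 20 DAP, with no overlap at either stage, and the difference between the stages was 3.56 ± 0.48 (adjusted p = 0.000158, edgeR). Cp4.1LG13g04840 was lower in HL at 5 DAP, at 6.08, 5.21 and 3.81 CPM against 11, 13 and 9.81 CPM in H (−1.16 ± 0.21, adjusted p = 0.00702, edgeR). It was higher in HL at 10 DAP, at 3.22, 2.28 and 1.95 CPM against 0.107, 0.333 and 0.458 CPM (3.05 ± 0.56, adjusted p = 0.0194, edgeR). The first of these values was −0.98 without HL_5 replicate 3 and its call was lost in the fit over 18 libraries (adjusted p = 0.108, edgeR), and the call at 10 DAP was lost without any of H_10 replicate 2, H_10 replicate 3 and the 3 HL_10 libraries (adjusted p from 0.0527 to 0.0754, edgeR).

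Cp4.1LG19g02880, described as transporter-like protein 4, had the highest level of the family over the 18 libraries (mean 26.1 FPKM) and was higher in HL at the earlier stages. It measured 31.4, 19.4 and 36.1 CPM in H_5 against 103, 168 and 160 CPM in HL_5, and 9.02, 18.3 and 10.9 CPM in H_10 against 47.3, 58 and 66.7 CPM in HL_10. All HL libraries lay above all H libraries at both stages (log2 fold changes 2.30 ± 0.28 and 2.19 ± 0.30, adjusted p = 0.0017 and 0.00946, edgeR), and the call at 10 DAP was lost by a narrow margin without H_10 replicate 3 (adjusted p = 0.0501, edgeR). By 20 DAP no library was above 0.577 CPM in either accession. The gene with the highest level of the family in HL_20, at 7.23 FPKM, was Cp4.1LG13g07140, described as transporter-like protein 1, which held 78.3, 86.6 and 86.2 CPM in H_20 and 41, 46.1 and 41.4 CPM in HL_20. The accessions did not overlap, but the log2 fold change of −0.97 ± 0.10 was under the fold limit. This gene shares 1114 bases with an arginyl-tRNA-protein transferase gene of the other strand, Cp4.1LG13g07240, at means of 28.2 CPM in H_20 and 23.3 CPM in HL_20.

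A neighbouring pair described as transporter-like protein 2 on linkage group 1 had opposite differences at 5 DAP. Cp4.1LG01g21650 had 1.34, 0.841 and 1.08 CPM in H_5 and 0, 0.0965 and 0 CPM in HL_5, at least 7.16-fold lower in HL. Cp4.1LG01g25300 had 0.287, 0.0934 and 0.189 CPM in H_5 and 14, 6.22 and 5.78 CPM in HL_5 (log2 fold change 5.48 ± 0.56, adjusted p = 0.000862, edgeR). The models have the same length of 1458 bases and lie within 50 kb of each other, and since their sequences were not compared, whether reads were split between them was not tested.

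**Figure D2:**
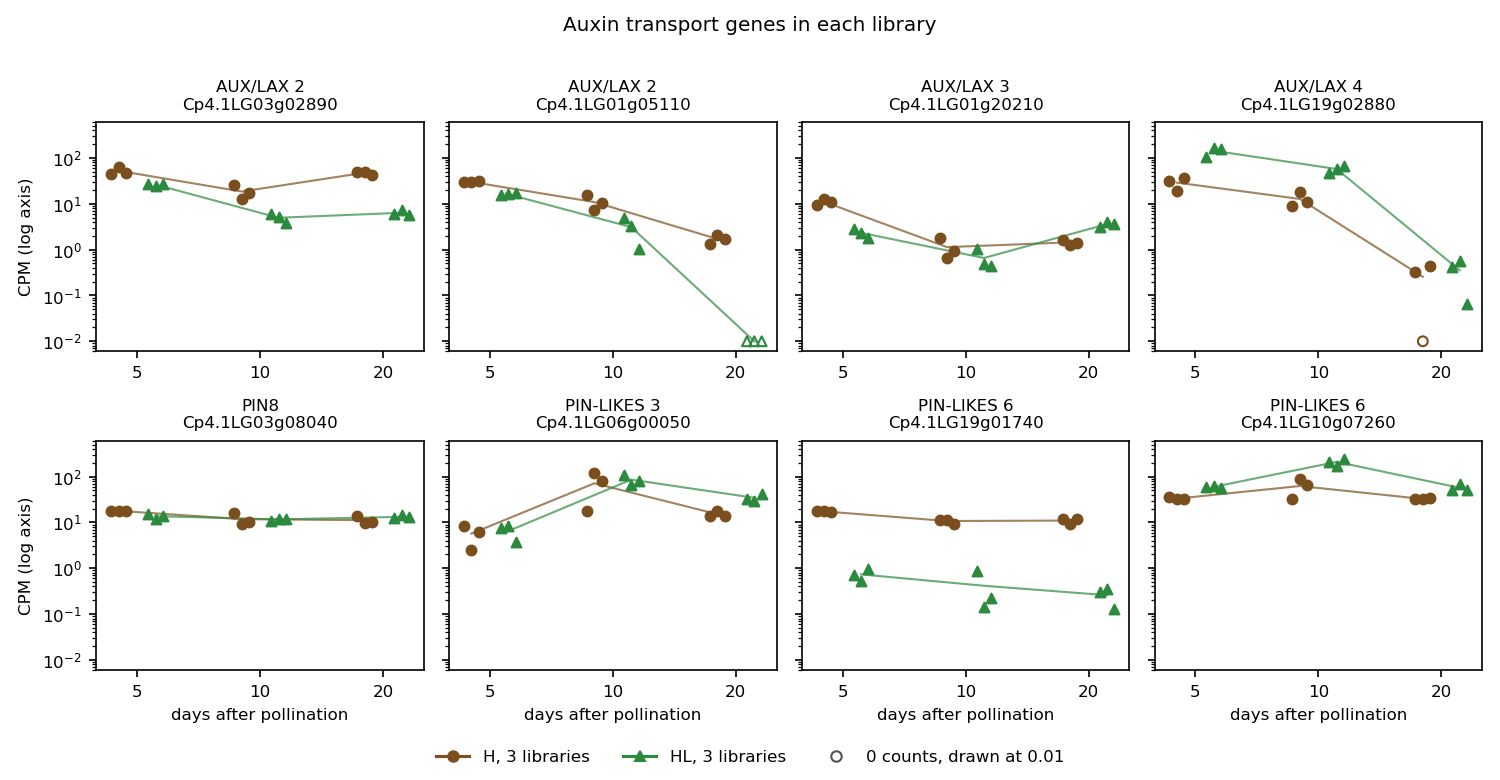
CPM (y axis, log scale) of 8 auxin transport genes in each library at 5, 10 and 20 DAP (x axis); circles are H, triangles HL, lines join group means, and open symbols drawn at 0.01 mark 0 counts. AUX/LAX 2, 3 and 4 are the transporter-like proteins of those numbers. Cp4.1LG19g01740 is lower in HL at every stage, and Cp4.1LG01g05110 has 0 counts in each HL_20 library.

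Among genes described as efflux carriers, a gene closest to PIN8, Cp4.1LG03g08040, was present at all stages, and whether its product exports auxin from cells was not tested. It held 18.1, 18.1 and 17.5 CPM in H_5, 15.9, 9.18 and 10.3 CPM in H_10 and 14, 9.60 and 9.99 CPM in H_20. In HL it held 15.4, 12 and 13.8 CPM at 5 DAP, 10.9, 12.2 and 11.9 CPM at 10 DAP and 12.2, 14.7 and 12.8 CPM at 20 DAP. H lay above HL at 5 DAP without overlap, by less than the fold limit, the accessions overlapped at the later stages, and the gene was called in no comparison. Its whole span of 3095 bases overlaps Cp4.1LG03g08010, a gene of the other strand also closest to PIN8, at means of 3.78 CPM in H_5 and 2.49 CPM in HL_5.

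PIN-LIKES 6, in Arabidopsis a protein of the endoplasmic reticulum, had 2 copies with opposite differences. Cp4.1LG19g01740 (linkage group 19, bases 1401451 to 1410662, minus strand) was lower in HL at all 3 stages. It measured 17.9, 17.5 and 16.8 CPM in H_5, 11.5, 11.4 and 9.37 CPM in H_10 and 11.7, 9.11 and 12.2 CPM in H_20. In HL no library exceeded 1 CPM: the values were 0.709, 0.531 and 0.964 CPM at 5 DAP, 0.878, 0.142 and 0.225 CPM at 10 DAP and 0.297, 0.346 and 0.132 CPM at 20 DAP. The log2 fold changes were −4.56 ± 0.19, −4.65 ± 0.62 and −5.35 ± 0.34 (adjusted p = 3.46e-05, 0.00866 and 8.65e-05, edgeR), and all 3 calls were kept when any 1 library was left out. Of its bases, 471 overlap Cp4.1LG19g01650, a RING1 ubiquitin ligase gene of the other strand, which averaged 57.4 CPM in H_5 and 53.8 CPM in HL_5. This neighbour was lower in HL at the later stages, with means of 292 CPM in H_10 and 132 CPM in HL_10. At 20 DAP its means were 38.7 CPM in H and 18.9 CPM in HL. Any part of its reads in the differences was not tested.

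Cp4.1LG10g07260, the other PIN-LIKES 6 copy and the PIN-LIKES gene with the highest mean over 18 libraries (37.0 FPKM), was higher in HL at 10 DAP. It measured 33, 87 and 66.9 CPM in H_10 and 208, 174 and 246 CPM in HL_10 (log2 fold change 1.76 ± 0.38, adjusted p = 0.0299, edgeR). All HL libraries were higher, yet the call was lost without H_10 replicate 3 or any HL_10 library (adjusted p from 0.0817 to 0.104, edgeR). At 5 and 20 DAP the difference was 0.85 ± 0.09 and 0.80 ± 0.14, below the fold limit. A PIN-LIKES 3 gene, Cp4.1LG06g00050, was higher in HL at 20 DAP, at 31.8, 29.5 and 42.2 CPM against 13.6, 17.6 and 14.1 CPM in H (1.18 ± 0.18, adjusted p = 0.00263, edgeR). In the fit over 18 libraries this call was lost (adjusted p = 0.0853, edgeR). PIN-LIKES 2 genes differed at 1 stage each, Cp4.1LG13g03760 at 5 DAP (1.22 ± 0.18) and Cp4.1LG09g03360 at 20 DAP (1.67 ± 0.51), and the second call was lost without H_20 replicate 3, HL_20 replicate 2 or HL_20 replicate 3 (adjusted p = 0.0977, 0.0896 and 0.06, edgeR). Both were lost in the fit over 18 libraries (adjusted p = 0.134 and 0.0548, edgeR).

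**Figure D3:**
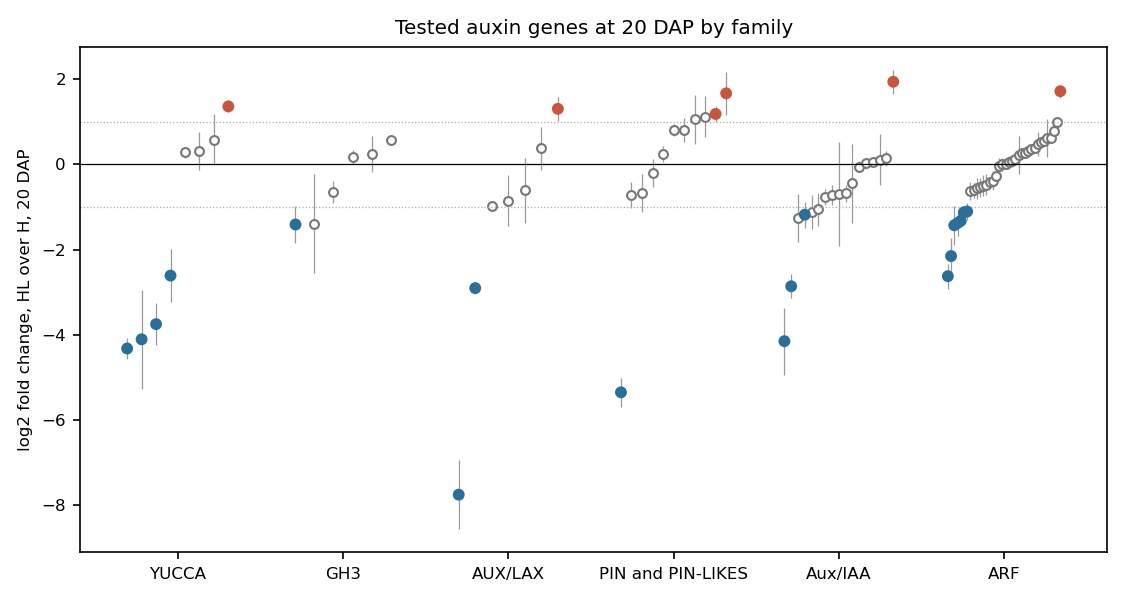
Log2 fold change of HL over H at 20 DAP (y axis, with SE) for 85 of the 92 tested members, by family (x axis); filled points were called, open points were not, and dotted lines mark the fold limit. The 18 plotted genes called lower reach −7.76 and the 6 called higher reach 1.94, and fitted values of genes with 0 counts in HL_20 depend on the prior count.

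Of 21 Aux/IAA repressors, 16 were tested at 5 DAP, 16 at 10 DAP and 17 at 20 DAP. In HL 1 was called higher at 5 DAP, 1 lower at 10 DAP, and 1 higher and 3 lower at 20 DAP (5.88% and 17.6%). Of all tested features 5.53% were higher at 5 DAP, 5.56% lower at 10 DAP, and 8.37% higher and 12.7% lower at 20 DAP. Cp4.1LG02g14400, described as IAA26, was alike in both accessions at 5 DAP, at 81.3, 66.8 and 76.8 CPM in H and 90.5, 64.9 and 89.1 CPM in HL. At 20 DAP it was at 8.74, 7.2 and 5.83 CPM in H and 1.19, 0.808 and 0.987 CPM in HL. It had fallen in both, further in HL, and its log2 fold change at 20 DAP was −2.86 ± 0.29 (adjusted p = 0.000517, edgeR), with a called difference from 5 DAP of −2.98 ± 0.54 (adjusted p = 0.00145, edgeR). Cp4.1LG18g04280, described as IAA27, showed the reverse, with 15.7, 10 and 8.71 CPM in H_20 and 50.4, 50.9 and 31.6 CPM in HL_20 (1.94 ± 0.28, adjusted p = 0.00213, edgeR). Both accessions had overlapped at 5 DAP, from 60.8 to 72.4 CPM in H and from 64.6 to 91 CPM in HL. No protein domain was listed for this model, and 619 of its bases overlap an elongation factor Ts gene, Cp4.1LG18g04110, which averaged 11.4 CPM in H_20 and 21.1 CPM in HL_20.

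A gene described as IAA9, Cp4.1LG04g09290, was low at 20 DAP, at 1.66, 0.706 and 1.28 CPM in H and no more than 0.132 CPM in HL. By the mean of H it was at least 6.16-fold lower in HL (adjusted p = 0.00642, edgeR). The IAA9 gene with the highest mean of all Aux/IAA genes, Cp4.1LG07g01520 (133 FPKM), did not differ by a called amount at any stage, with log2 fold changes of 0.11 ± 0.13, −0.02 ± 0.38 and −0.05 ± 0.12. A second IAA26 gene, Cp4.1LG06g03740, was lower in HL at 20 DAP (−1.18 ± 0.30, adjusted p = 0.0196, edgeR), and the call was lost without H_20 replicate 1, H_20 replicate 2 or HL_20 replicate 3 (adjusted p = 0.0681 and 0.0631, edgeR, and a log2 fold change of −0.99). IAA4, in Arabidopsis an early auxin-induced gene, was represented by Cp4.1LG08g00060, which was higher in HL at 5 DAP at 22.5, 24.6 and 12.8 CPM against 7.7, 6.82 and 7.69 CPM in H (1.43 ± 0.26, adjusted p = 0.00711, edgeR). In the fit over 18 libraries the adjusted p was 0.0715 (edgeR). At 10 DAP it had 49.5, 39 and 39.5 CPM in HL and 1.6, 13.5 and 14.9 CPM in H, a difference that was not called (2.10 ± 0.74, adjusted p = 0.111, edgeR). The call at 10 DAP was Cp4.1LG03g09640, described as IAA13, at 31.6, 24.7 and 23.1 CPM in H and 8.93, 11.9 and 3.97 CPM in HL (−1.66 ± 0.39, adjusted p = 0.0405, edgeR), and it was lost without H_10 replicate 2, H_10 replicate 3, HL_10 replicate 1 or HL_10 replicate 2 (adjusted p from 0.0625 to 0.115, edgeR). Another IAA13 gene, Cp4.1LG12g01240, was low throughout, at 0.377 to 0.934 CPM in H_5 and 0.916 to 1.22 CPM in HL_5, and fell in HL at least 5.15-fold by 20 DAP. IAA11 rose over time in both accessions: Cp4.1LG05g01010 went from a mean of 35.3 to 129 CPM in H and from 25.8 to 134 CPM in HL, and had the highest FPKM of the family at 20 DAP in each.

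All 37 ARF genes were tested at 5 DAP, and most of the family was called at no stage between the accessions. The counts of calls were 1 higher and 1 lower at 5 DAP (2.70% each), where 5.53% and 6.43% of all features were called. At 10 DAP they were 1 higher and 3 lower of 36 (2.78% and 8.33%), against 5.42% and 5.56% of all features. At 20 DAP they were 1 higher and 7 lower of 36 (2.78% and 19.4%), against 8.37% and 12.7% of all features. The median log2 fold change of the family was 0.00 at both 5 and 20 DAP. Those of highest level, ARF1 (Cp4.1LG01g17160, mean 74.6 FPKM over 18 libraries) and ARF6 (Cp4.1LG10g06190, 39.2 FPKM in H_20), had fold changes near 0 at 20 DAP (0.00 ± 0.10 and 0.00 ± 0.16). ARF22 (Cp4.1LG05g08160), the highest in HL_20 at 55.3 FPKM, had a log2 fold change of 0.52 ± 0.10 there, below the fold limit.

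Genes described as ARF19 and ARF5 were among the ARFs called lower in HL at 20 DAP, while other genes of both names were not called. The name ARF19 was held by 4 genes, but not for the same protein. Cp4.1LG11g06740 and Cp4.1LG07g07700 were closest to the rice protein also named OsARF7a, and Cp4.1LG07g10790 and Cp4.1LG11g12020 to a protein also named IAA22. Cp4.1LG11g06740 held 60.7, 61.8 and 57.2 CPM in H_20 and 5.41, 11 and 12.8 CPM in HL_20 (log2 fold change −2.63 ± 0.29, adjusted p = 0.000796, edgeR). At 5 DAP the accessions had overlapped, at 31.3 to 60.1 CPM in H and 49.7 to 58 CPM in HL, and the change between the stages was −2.76 ± 0.49 (adjusted p = 0.00137, edgeR). The other 3 genes named ARF19 had log2 fold changes of −0.03, 0.79 and 0.63 at 20 DAP and were not called. A gene closest to ARF5, which in Arabidopsis acts in vascular and embryo patterning, Cp4.1LG06g00800, was at 25, 27 and 28.7 CPM in H_20 and 12, 11.3 and 9.01 CPM in HL_20 (−1.33 ± 0.14, adjusted p = 0.000655, edgeR). It shares 829 bases with an undescribed feature of the other strand, Cp4.1LG06g00980, at means of 13.5 CPM in H_20 and 8.64 CPM in HL_20. The other gene closest to ARF5, Cp4.1LG02g08050, held 55.9, 45.5 and 46.8 CPM in H_20 and 43.4, 43.2 and 37.5 CPM in HL_20. This difference was not called.

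The 7 ARF genes called lower in HL at 20 DAP also included Cp4.1LG17g10130 and Cp4.1LG14g02660, closest to ARF9, and Cp4.1LG07g01180, closest to ARF17. Other genes of these names did not pass both thresholds, with means higher in HL for Cp4.1LG11g04200 and Cp4.1LG19g06010 and lower for Cp4.1LG13g00970 and Cp4.1LG05g07840. The model Cp4.1LG19g06010, described as ARF17, lists a remorin domain and no ARF domain, and overlaps the ARF6 gene Cp4.1LG19g05880 of the other strand. Cp4.1LG17g10130, closest to ARF9, measured 23.3, 19.6 and 19.8 CPM in H_20 and 6.96, 5.37 and 1.78 CPM in HL_20 (−2.15 ± 0.42, adjusted p = 0.00715, edgeR), after overlapping values of 108 to 168 CPM in the 6 libraries of 5 DAP. A second ARF9 copy, Cp4.1LG14g02660, was lower too, at 27, 28.4 and 27.2 CPM against 16.1, 9.52 and 6.25 CPM (−1.38 ± 0.31, adjusted p = 0.0118, edgeR). ARF17 (Cp4.1LG07g01180) was lower in HL at 10 DAP (−1.39 ± 0.17, adjusted p = 0.00684, edgeR) and at 20 DAP (−1.13 ± 0.15, adjusted p = 0.00173, edgeR), with 16.8 to 20.2 CPM in H_20 and 7.3 to 9.46 CPM in HL_20.

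The 2 ARF18 copies were called in opposite directions at 20 DAP. Cp4.1LG19g04050 measured 34, 30.4 and 30.2 CPM in H_20 and 87.3, 102 and 123 CPM in HL_20, so that HL was higher with no overlap (1.72 ± 0.15, adjusted p = 0.000295, edgeR). Cp4.1LG10g04760 was lower in HL at 10 DAP (−1.07 ± 0.18) and at 20 DAP, where it had 14, 10.5 and 13.3 CPM in H and 4.76, 6.69 and 6.18 CPM in HL (−1.11 ± 0.20, adjusted p = 0.00523, edgeR). Its call at 20 DAP was lost without HL_20 replicate 1 (log2 fold change −0.97), and that at 10 DAP without H_10 replicate 3 or any HL_10 library (adjusted p from 0.0516 to 0.0662, edgeR). The model described as cellulose synthase-like protein G3, Cp4.1LG01g00450, was lower at 10 and 20 DAP (−2.40 ± 0.37 and −1.43 ± 0.46), where it cannot be told which of its domains the reads came from. Its call at 10 DAP was lost without H_10 replicate 3, HL_10 replicate 2 or HL_10 replicate 3 (adjusted p from 0.0501 to 0.0638, edgeR) and that at 20 DAP without any H_20 library or HL_20 replicate 2 (adjusted p from 0.0867 to 0.102, edgeR).

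Earlier differences in the ARF family were few. ARF3, which in Arabidopsis shapes the gynoecium and organ polarity, was lower in HL at 5 DAP in the copy Cp4.1LG10g05170, at 46.4, 40.9 and 49.2 CPM against 85.3, 145 and 99.5 CPM in H (−1.27 ± 0.19, adjusted p = 0.00328, edgeR). An ARF6 copy, Cp4.1LG20g05550, was higher at that stage, at 73.7, 71.8 and 68.1 CPM in HL against 30.8, 28.9 and 30.6 CPM in H (1.24 ± 0.08, adjusted p = 0.0002, edgeR). ARF10, a repressing ARF that in Arabidopsis is cut by a microRNA, was higher in HL at 10 DAP in Cp4.1LG16g05330, at 24.7, 27.4 and 36.5 CPM against 9.71, 6.99 and 10.9 CPM in H (1.69 ± 0.25, adjusted p = 0.0108, edgeR), and stood at 1.00 ± 0.11, just under the fold limit, at 20 DAP.

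**Figure D4:**
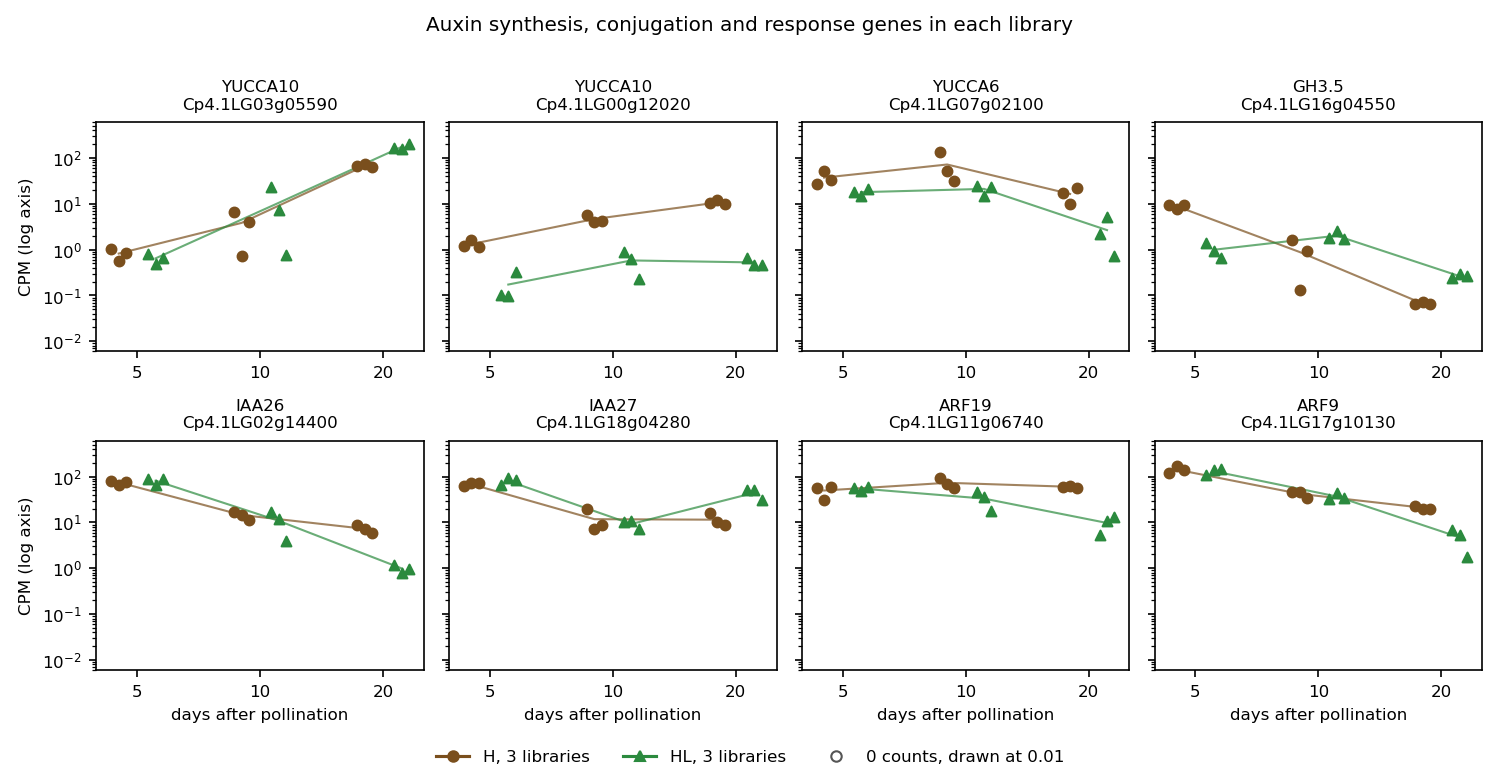
CPM (y axis, log scale) of 8 genes of auxin synthesis, conjugation and response in each library at 5, 10 and 20 DAP (x axis); circles are H, triangles HL, lines join group means. YUCCA10 Cp4.1LG00g12020 is lower in HL at every stage, YUCCA10 Cp4.1LG03g05590 is higher in HL at 20 DAP, and IAA26, ARF19 and ARF9 overlap at 5 DAP and are lower in HL at 20 DAP.

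The counts at 10 DAP depended on single libraries more than those of other stages. Without H_10 replicate 1, which stood apart, 10 members were called higher and 9 lower. Without H_10 replicate 3 the counts were 1 and 2, without HL_10 replicate 1 or replicate 3 they were 2 and 4, and without HL_10 replicate 2 they were 2 and 2. Only 3 of the 11 calls at this stage, PIN-LIKES 6 (Cp4.1LG19g01740), ARF17 (Cp4.1LG07g01180) and ARF10 (Cp4.1LG16g05330), were kept whichever library was left out. At 5 DAP 15 of 19 and at 20 DAP 19 of 26 calls were kept in this way.

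From 5 to 20 DAP the members fell more often than they rose in both accessions. In H 17 of 98 rose and 36 fell (17.3% and 36.7%), where 19.8% of all tested features rose and 20.6% fell. In HL 14 of 94 rose and 48 fell (14.9% and 51.1%), where 18% of all features rose and 23.1% fell. The median log2 fold change of the members was −0.54 in H and −1.10 in HL, with medians of 0.00 and −0.02 over all features. Of the 87 members tested in both, 30 fell in both accessions, which is 83.3% of those that fell in H and 62.5% of those that fell in HL. Another 8 rose in both, which is 47.1% of those that rose in H and 57.1% in HL. The features called in both accessions were not counted over the whole series, so whether these shares are particular to the members was not tested.

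AUX/LAX influx carriers were the clearest case. Of 10 tested genes 6 fell and 0 rose in H, and 7 fell and 0 rose in HL, with median log2 fold changes of −3.27 and −2.34. In each accession 1 had a positive change at an unadjusted p under 0.05 (edgeR), and DESeq2 called 0 as rising. The largest falls in each accession included transporter-like protein 4 (Cp4.1LG19g02880), by −6.74 ± 0.53 in H and −8.59 ± 0.45 in HL. Aux/IAA genes fell in 9 of 16 cases in H and 10 of 16 in HL and rose in 2 of each. ARFs fell in 13 of 36 and 16 of 37 and rose in 2 and 7. The ARF4 gene Cp4.1LG05g08310 fell most among the ARFs in H and in HL, from 198, 78.4 and 204 CPM to 11.7, 7.98 and 7.11 CPM in H and from 339, 305 and 331 CPM to 6.9, 6.46 and 4.87 CPM in HL. It overlaps an isovaleryl-CoA dehydrogenase gene, Cp4.1LG05g08320, whose mean went from 142 to 187 CPM in H and from 121 to 86.9 CPM in HL.

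Of the PIN and PIN-LIKES genes, 6 rose and 3 fell of 18 tested in H, and 1 rose and 7 fell of 16 tested in HL. Tested directly, the change differed between the accessions for 1 of 22 of these genes (a lower HL over H ratio at 20 DAP), against 7.85% of all features with a lower and 6.03% with a higher ratio. The rising gene in HL was PIN-LIKES 3 (Cp4.1LG06g00050), which also rose in H, with log2 fold changes of 1.41 ± 0.39 in H and 2.43 ± 0.30 in HL. Among members that reached a mean of 1 CPM in any stage, 48 of 102 had their highest mean at 5 DAP in H (47.1%) and 48 of 96 in HL, against 33.5% and 35.2% of all such features. For AUX/LAX genes these numbers were 9 of 11 and 8 of 10.

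**Figure D5:**
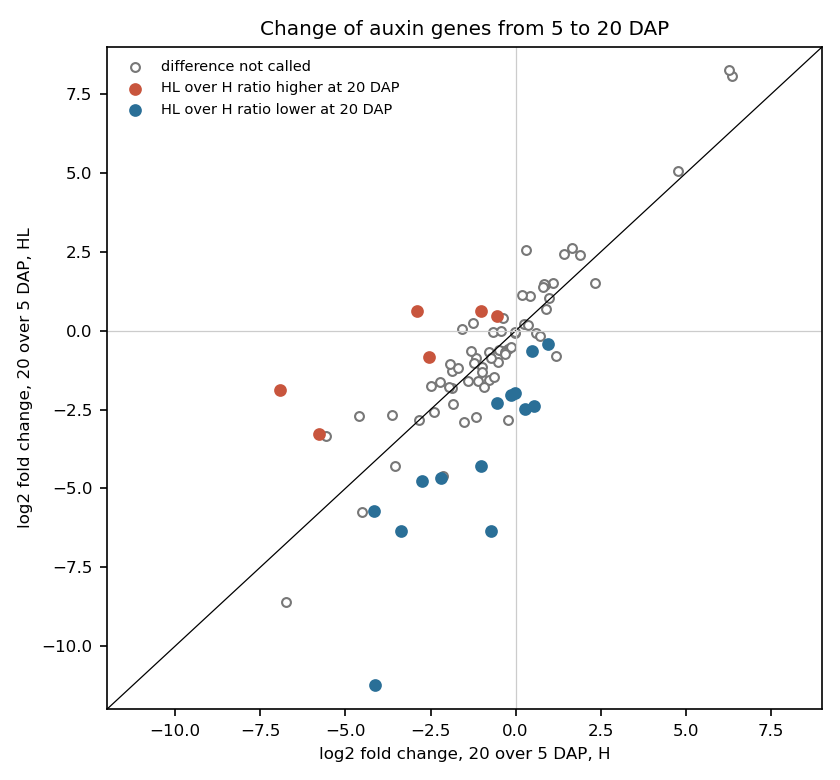
Log2 fold change from 5 to 20 DAP in H (x axis) and in HL (y axis) for the 87 members tested in both; the line marks equal change, and 20 filled points had a called difference between the accessions. Points of genes that fell in both accessions lie at the lower left, and 30 of the 87 were called so, a count not made over all features.

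Whether the accessions changed differently from 5 to 20 DAP was tested in the fit of all 18 libraries, as the change of the HL over H ratio between the stages. For 6 of 108 members this ratio rose and for 16 it fell (5.56% and 14.8%), where 6.03% and 7.85% of all features did. The falls included the AUX/LAX 2 genes Cp4.1LG01g05110 and Cp4.1LG03g02890 and the IAA26 genes Cp4.1LG02g14400 and Cp4.1LG06g03740. They also included the ARF19 gene Cp4.1LG11g06740, the ARF5 copy Cp4.1LG06g00800 and the ARF9 copies Cp4.1LG17g10130 and Cp4.1LG14g02660. Other genes with these names were not called. The rises were GH3.5, both transporter-like protein 3 genes, an IAA27 copy, an ARF18 copy and the YUCCA9 model. The count of falls was 10 without H_5 replicate 1, H_5 replicate 2, HL_5 replicate 3 or HL_20 replicate 2, and 9 without H_20 replicate 1 or HL_5 replicate 2. In all, 13 of the 22 calls were kept whichever library was left out.

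Other genes of the pathway were counted from lists of description words. As given above, 8.37% of all features were called higher and 12.7% lower at 20 DAP, and over time 19.8% rose and 20.6% fell in H and 18% rose and 23.1% fell in HL. Of 11 genes of auxin receptors and their complex (TIR1, AFB and CAND1 proteins), 6 fell from 5 to 20 DAP in H and 8 in HL, while 1 was higher in HL at 20 DAP. Of 4 genes of the indole pyruvate step before YUCCA, 2 were tested and both rose from 5 to 20 DAP in each accession: Cp4.1LG18g08620 went from a mean of 0.0631 to 46.7 CPM in H and from 1.20 to 27.9 CPM in HL. Of 10 hydrolase genes that free auxin from its conjugates, 3 of 9 tested were lower in HL at 20 DAP, among them Cp4.1LG02g14320, with means of 635 CPM in H_20 and 280 CPM in HL_20. SAUR genes, small early auxin-induced genes, were called higher in 4 and lower in 7 of 20 tested of 52 at 20 DAP. Of 6 co-repressor genes, 2 rose from 5 to 20 DAP in H and 3 in HL, and of 6 ABCB transporter genes 3 fell in each accession and 2 rose in HL, while 2 were higher and 1 was lower in HL at 20 DAP. Kinases that act on PIN proteins were higher in 3 and lower in 1 of 6 tested at 20 DAP.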

How the data were processed

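RNA from seed coats of both accessions at 5, 10 and 20 DAP was sequenced in 18 libraries. The authors mapped reads to the zucchini genome and deposited read counts per gene, unnormalised, together with FPKM values from Cufflinks. The counting tool and its strand setting are not given in the sources used here, and edgeR is named in the submitters' processing notes. Deposited columns of group means, fold changes and p-values from the authors' own comparisons were not used.

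Groups were taken from the labels. Counts of each pair of groups (6 libraries) were filtered with filterByExpr, scaled by TMM and tested with edgeR 4.0.16 (R 4.3.3, limma 3.58.1) by the quasi-likelihood test with Benjamini-Hochberg adjustment over all features, after a check on simulated data. CPM used TMM sizes over 18 libraries, in which 3 counts are 0.138 to 0.225 CPM. Each fold given as at least sets the mean of the higher group over the largest CPM that 3 counts make in the lower group. Single libraries of the higher group can give less. FPKM served only to compare levels between genes. Because the number of plants per replicate is not given, p-values measure the spread between these libraries. A model closest to several proteins was placed by its recommended name, which moved 4 models with 2 of the phrases to the ARFs. The members and lists were chosen with earlier results of these data known. Genes named were up to 10 called members of largest change per accession comparison and 6 per development comparison (mean count of at least 50, no overlap between groups), 10 for the difference between stages, those called alike at all 3 stages and those of highest FPKM per family. Others were named after their values were seen, and some members that fell under this rule are not reported here one by one. A RefSeq gene table matched 0 identifiers, so names are those in the files. As alternatives, scaling by RLE or by the upper quartile, DESeq2 1.42.0, other filters, the replicate number as a block, a fit over all libraries, no fold limit and leaving out each library were tried.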

Additional observations from a re-analysis of the deposited data

Results flagged for a closer look

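For 22 members the HL over H ratio changed from 5 to 20 DAP by a called amount in the fit of 18 libraries (quasi-likelihood test of edgeR, Benjamini-Hochberg adjustment). That is, the change in these transcripts differed between the accessions. The ratio rose for 5.56% and fell for 14.8% of tested members, against 6.03% and 7.85% of all features. The values of 21 of them follow, as differences of log2 fold changes, 20 DAP minus 5 DAP.

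Among transport genes the difference was −6.99 and −1.90 for the transporter-like protein 2 genes Cp4.1LG01g05110 and Cp4.1LG03g02890, and 3.56 and 2.49 for the transporter-like protein 3 genes Cp4.1LG01g20210 and Cp4.1LG13g04840. The value of Cp4.1LG01g05110 rests on HL_20 libraries at 0 counts and is no bound, and that of Cp4.1LG13g04840 rests on H_20 libraries at 4, 5 and 0 counts. Among genes of synthesis and conjugation the difference was −2.92 for YUCCA8 (Cp4.1LG17g09670), 1.02 for the YUCCA9 model (Cp4.1LG17g09640), 5.03 for GH3.5 (Cp4.1LG16g04550) and −5.59 for GH3.6 (Cp4.1LG06g07290). The GH3 values rest on groups at or near 3 counts a library at 20 DAP.

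Among Aux/IAA genes it was −2.98 and −1.13 for the IAA26 genes Cp4.1LG02g14400 and Cp4.1LG06g03740, −2.90 for IAA13 (Cp4.1LG12g01240), −2.49 for IAA4 (Cp4.1LG08g00060), −3.25 for IAA9 (Cp4.1LG04g09290) and 1.71 for IAA27 (Cp4.1LG18g04280). Among ARFs it was −2.76 for ARF19 (Cp4.1LG11g06740), −2.03 and −1.75 for the ARF9 genes Cp4.1LG17g10130 and Cp4.1LG14g02660, −1.58 for ARF4 (Cp4.1LG05g08310), −1.35 for ARF5 (Cp4.1LG06g00800), −1.95 for the cellulose synthase-like G3 model (Cp4.1LG01g00450) and 1.65 for ARF18 (Cp4.1LG19g04050). The IAA13 and IAA9 values rest on HL_20 libraries at 3 counts or fewer, and the IAA13 gene was also near that floor in H_20, at 6, 5 and 3 counts.

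With single libraries left out, 9 of these calls were lost at least once. They were those of Cp4.1LG04g09290, Cp4.1LG05g08310, Cp4.1LG06g03740, Cp4.1LG06g07290, Cp4.1LG08g00060, Cp4.1LG12g01240, Cp4.1LG13g04840, Cp4.1LG17g09640 and Cp4.1LG17g09670, each without 6 to 14 of the 18 libraries.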

How the results depend on the processing

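In every setting run, members lower in HL at 20 DAP outnumbered those higher, and members that fell over time outnumbered those that rose, while 1 single-gene value reversed. Without H_5 replicate 3 the log2 fold change of Cp4.1LG20g05560 at 5 DAP was 1.48, with −0.68 as the lowest. Without the fold limit 21 members were lower in HL at 5 DAP, 15 higher at 20 DAP, and the ratio between stages rose for 11. With all 18 libraries in one fit 5 were higher at 5 DAP, and 7 were higher and 14 lower at 10 DAP. DESeq2 called 13 lower at 10 DAP. With the replicate block 2 were higher and 1 lower at 10 DAP. Replicate numbers did not pair the libraries, as same-numbered correlations of deviations ranged from −0.29 to 0.341. Leaving out 1 library gave 1 to 10 higher and 2 to 9 lower members at 10 DAP, 5 to 7 and 16 to 24 at 20 DAP, and 5 to 9 rises and 9 to 18 falls of the ratio between stages. With scaling by the upper quartile, the median change over all genes shifted by −0.14 for HL from 5 to 20 DAP and by less than 0.1 elsewhere. Of single-gene values 6931 kept their side of the threshold, 231 fell below it and 128 passed it. The filter left 24 members untested, and 3 replicates a group limit what 10 DAP can show.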

Other observations

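Members that share their closest protein were called in opposite directions in several comparisons: 1 YUCCA10 gene higher and 3 lower, and 1 ARF18 gene each way, at 20 DAP, 1 PIN-LIKES 6 gene each way at 10 DAP, and 1 AUX/LAX 2 gene higher and 2 lower at 5 DAP. Over time 1 JAR1 gene and 1 GH3.1 gene rose while a copy fell, in both accessions.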
